A study of Mus musculus with 2 samples.

Results

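Type 2 conventional dendritic cells (cDC2) were examined in tumours of the ID8 model, in which a mouse ovarian surface epithelial line grows as ovarian cancer in the mouse. A barcode counted as cDC2 when the unique molecular identifiers (UMIs) of Cd209a, Clec10a, Napsa and Klrd1 summed to at least 3 and H2-Ab1 had at least 5. The same rule allowed at most 3 UMIs of C1qa, C1qb and C1qc together, at most 3 of Ccr7 and Fscn1, at most 1 of Krt18, and 0 of Xcr1, Clec9a, Siglech, Cd3e and Cd79a. It found 729 cells among 27732 barcodes with at least 250 genes and at most 20% mitochondrial UMIs. Of these, 368 came from the chemoresistant library and 361 from the primary library.

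The chemoresistant library was made from solid tumours of the model labelled with cisplatin, a platinum drug that crosslinks DNA. The primary library was made from solid tumours labelled treatment naïve. Per the labels' protocols, collagenase digests of tumours were pooled before loading, so each group was 1 library and no animal can be told apart from another. Strain, age, dose, timing and the number of tumours per pool are not given in the sources used here. Every comparison below is of 1 library with 1 library, without a replicate check and without a test, and all intervals are 95% intervals that cover counting error only.

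Conventional dendritic cells arise from bone marrow precursors under the cytokine Flt3 ligand, take up antigen in tissue and carry it to lymph nodes. The type 1 subset is best known for cross-presentation to CD8 T cells, and the type 2 subset for presentation on MHC class II to CD4 T cells. cDC2 share the surface proteins Sirpa and Itgam (CD11b) and many lectins with monocytes and macrophages. They are told from those cells by Flt3, the transcription factor Zbtb46 and low levels of macrophage genes.

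The chemoresistant and primary libraries held 16390 and 14390 barcodes, with 158118781 and 141334623 UMIs, of which 14908 and 12824 barcodes were kept. A total of 52 barcode sequences occurred in both libraries, 44 of them kept in both, and 1 primary cDC2 carried such a barcode. Chemoresistant cDC2 were shallower, with a median of 4537 UMIs against 9442 UMIs in primary cDC2. Ribosomal protein genes took 23.6% of UMIs in chemoresistant cDC2 and 16.9% in primary cDC2. They also took a larger share of chemoresistant than of primary UMIs in cDC1 (23.6% and 13.7%), macrophages (16.0% and 11.9%) and B cells (27.0% and 22.2%). Among 6151 genes compared, the median log2 ratio of chemoresistant over primary was −0.20, so ratios below are to be read against that value. Haemoglobin genes held 0.576% of UMIs in chemoresistant cDC2 and 0.0108% in primary cDC2, and 0.494% and 0.0137% in B cells of the same libraries. B cells do not make haemoglobin, so their levels are given below beside genes of other cell types, and the part of carried RNA in any cDC2 level was not tested.

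The genes of the rule are described without a test, since they chose the cells. Napsa, an aspartic protease gene, was found in 356 of 368 chemoresistant and 356 of 361 primary cDC2. It supplied 52.4% of the marker UMIs in chemoresistant cDC2 and 53.2% in primary cDC2. Clec10a, a galactose-binding lectin of the macrophage galactose lectin family, was found in 193 chemoresistant and 263 primary cells. Cd209a, a DC-SIGN family lectin, was found in 172 and 211 cells of these libraries, and Klrd1, the CD94 lectin-like receptor also carried by natural killer cells, in 248 and 226. Napsa alone met the marker sum in 25 chemoresistant and 35 primary cells. The marker sum had a median of 8 UMIs in chemoresistant and 19 in primary cDC2. Just inside the rule, 36 chemoresistant and 15 primary cells had a marker sum of 3, and their Ifitm1 levels were 624 and 170.0 CPM. The macrophage gene Apoe stood at 1921 and 10076.5 CPM in them, and Flt3 at 90.3 and 18.9 CPM. Just outside the rule, 42 chemoresistant and 43 primary barcodes had a sum of 2, and their Ifitm1 levels were 534 and 238 CPM. Levels are in CPM, which are UMIs summed over the cells of a class in a library and scaled to a total of 1000000. The C1q limit divided a denser stretch, with 186 chemoresistant and 257 primary members at 1 to 3 UMIs (Ifitm1 1539 and 1282 CPM). Just outside at 4 to 6 UMIs were 22 chemoresistant and 49 primary barcodes (Ifitm1 993 and 636 CPM). Flt3 was 25.7 and 119 CPM in these barcodes, against 119 and 121 CPM in those members. Apoe was 3543 and 540 CPM outside, against 418 and 1488 CPM inside. Mgl2 was higher outside in both libraries (599 and 818 CPM, against 364 and 678 CPM). By Flt3 and Apoe, the limit thus left out barcodes close to the members in the primary library only. The H2-Ab1 limit cut few cells, with 8 members in each library at 5 to 6 UMIs and 3 chemoresistant and 15 primary barcodes outside at 3 to 4.

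Over all cDC2 of each library, the markers named next, which the rule did not use, matched the label. Ifitm1, an interferon-induced transmembrane protein gene, stood at 1620 CPM in chemoresistant and 1217 CPM in primary cDC2, and at 27.1 and 25.2 CPM in B cells of these libraries. After thinning every cell to 3000 UMIs, Ifitm1 was detected in 203 of 296 chemoresistant cDC2 (68.6%) and 199 of 353 primary cDC2 (56.4%). Without thinning these shares were 72.0% and 66.5%, and thinned B cells gave 4.05% and 4.53%. Flt3, the receptor for the dendritic cell growth factor, had 122 CPM in chemoresistant and 125 CPM in primary cDC2, against at most 2.61 CPM in macrophages of either library. Zbtb46, which marks the conventional lineage, had 67.2 and 86.5 CPM in chemoresistant and primary cDC2 and 3.39 and 4.21 CPM in macrophages. Irf8, the factor that type 1 cells depend on, stood at 43.7 CPM in chemoresistant and 52.4 CPM in primary cDC2, whereas cDC1 held 1016 and 1346 CPM. Sirpa showed the reverse, with 166 CPM in chemoresistant and 284 CPM in primary cDC2 against 12.9 and 17.6 CPM in cDC1.

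The defining genes of B, T, natural killer and mast cells named next were under 10 CPM, except Klrk1 and Ccl5. Cd79b, a B cell receptor subunit, had 7.84 CPM in chemoresistant and 6.30 CPM in primary cDC2, and Ms4a1 (CD20) had 2.80 and 6.88 CPM. The T cell gene Cd3d had 3.92 and 1.15 CPM, and the natural killer receptor Ncr1 had 2.80 CPM in chemoresistant cDC2 and no UMI in primary cDC2, where 3 counts of the total correspond to 0.860 CPM. Of 12 natural killer genes, 10 were under 20 CPM in each library, and the other two were Klrk1 and Ccl5. Klrk1 stood at 124 CPM in chemoresistant and 113 CPM in primary cDC2, close to cDC1 with 155 and 170 CPM. Mast cell and basophil genes (8 measured) summed to 1.68 CPM in chemoresistant and 0.573 CPM in primary cDC2. The monocyte gene Ly6c2 had 7.28 CPM in chemoresistant and 2.87 CPM in primary cDC2, but other genes of its list were not low. The 14 measured genes of that list, for monocytes and Ly6c2 and Fcgr1 dendritic cells, summed to 2457 CPM in chemoresistant and 3106 CPM in primary cDC2. Of them, 2 were under 20 CPM in chemoresistant and 1 in primary cDC2. The same list summed to 17066 and 12084 CPM in monocytes of these libraries. Some other lists had higher sums in the chemoresistant library. Erythroid genes (5 measured) summed to 5770 CPM in chemoresistant and 108 CPM in primary cDC2, neutrophil genes (14) to 465 and 309 CPM, tumour cell genes (13) to 254 and 157 CPM, and fibroblast genes (10) to 281 and 112 CPM. The 14 B cell genes ran the other way, with 133 CPM in chemoresistant and 433 CPM in primary cDC2. The part of these RNAs in the results was not tested. Macrophage genes were not absent, as described further below.

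Promoters of Cd209a, Mgl2 and Ifitm1 are shown because these genes set cDC2 apart in both libraries, the first of them through the rule. The windows run from 250 bases before to 50 after the annotated start, in 5′ to 3′ direction of the gene, from RefSeq on GRCm38.p6. Capitals mark GGAAGT, a core of ETS factor sites of the PU.1 kind, searched on both strands.
Cd209a: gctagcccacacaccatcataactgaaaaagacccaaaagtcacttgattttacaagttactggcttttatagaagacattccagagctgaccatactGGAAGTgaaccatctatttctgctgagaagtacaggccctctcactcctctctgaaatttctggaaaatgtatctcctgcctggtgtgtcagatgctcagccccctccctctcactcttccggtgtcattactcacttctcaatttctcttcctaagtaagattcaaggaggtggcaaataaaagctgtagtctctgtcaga
Mgl2: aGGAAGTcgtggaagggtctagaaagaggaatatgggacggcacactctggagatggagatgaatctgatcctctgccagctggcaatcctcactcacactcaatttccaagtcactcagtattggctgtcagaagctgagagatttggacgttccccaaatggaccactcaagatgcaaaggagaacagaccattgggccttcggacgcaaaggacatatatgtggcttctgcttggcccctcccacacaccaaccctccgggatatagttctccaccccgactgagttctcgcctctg
Ifitm1: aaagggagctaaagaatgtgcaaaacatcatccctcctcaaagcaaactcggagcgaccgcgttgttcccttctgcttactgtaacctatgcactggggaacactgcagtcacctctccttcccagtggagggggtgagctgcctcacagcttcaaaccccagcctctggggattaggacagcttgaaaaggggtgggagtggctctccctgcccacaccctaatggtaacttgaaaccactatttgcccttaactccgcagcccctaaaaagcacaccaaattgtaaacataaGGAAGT
These windows are chr8:3748935-3749234 on the minus strand, chr11:70130107-70130406 on the plus strand and chr7:140967826-140968125 on the plus strand, in the order shown. The match begins 152 bases before the start in Cd209a and 249 before it in Mgl2, and lies in the last 6 bases of the Ifitm1 window. The same letters occurred in 23.8% of 32851 mouse promoter windows of 300 bases, so a match here is a description only.

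Among 3252 genes with a mean of at least 50 CPM, 14 (0.431%) were at least 2-fold higher in cDC2 than in each of 4 other phagocyte classes in both libraries, with 10 CPM added to each level. None was at least 2-fold lower than in all 4 (0%). The other classes were cDC1 (142 chemoresistant and 148 primary cells), migratory dendritic cells (36 and 61), monocytes without C1q (55 and 32) and C1q macrophages (2963 and 1154), each set by its own transcripts, as were the B cells (788 and 794) by Cd79a. Taken class by class, 7.23% of the genes were at least 2-fold higher in cDC2 than in cDC1 in both libraries and 1.91% at least 2-fold lower. Against migratory dendritic cells these shares were 11.7% and 3.26%, against monocytes 6.24% and 2.34%, and against macrophages 9.13% and 3.38%. Because cells were chosen by transcripts, these levels are a description.

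Ordered by the smallest ratio to another class, these genes began with Mgl2, Ifitm1, Cd7 and Ctnnd2. Mgl2, a lectin that binds N-acetylgalactosamine, had 330 CPM in chemoresistant and 690 CPM in primary cDC2, and at most 80.9 CPM in any other phagocyte class of either library. Clec4b1, a C-type lectin of the DCAR family, had 123 and 90.8 CPM in cDC2 of the chemoresistant and primary libraries, with 43.2 CPM in chemoresistant monocytes as the next level. Cd200r1, the inhibitory receptor for CD200, had 104 CPM in chemoresistant and 189 CPM in primary cDC2 and at most 68.6 CPM in the other phagocyte classes, with 18.1 and 116 CPM in T cells of these libraries. Slamf9, a receptor of the SLAM family, had 167 and 102 CPM in cDC2 of these libraries.

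Receptors for interleukins and metabolites were also in this group. Il18rap, a signalling chain of the interleukin 18 receptor, had 109 CPM in chemoresistant and 129 CPM in primary cDC2, and 0 and 102 CPM in T cells. Il1r2, the decoy receptor for interleukin 1, had 118 and 164 CPM in cDC2 and 0 and 177 CPM in T cells. Ffar2, a receptor for short-chain fatty acids, had 120 CPM in chemoresistant and 150 CPM in primary cDC2, against at most 28.2 CPM in the other classes. Cd7 had 71.1 and 59.3 CPM in cDC2 and at most 8.43 CPM in the other phagocytes, although T cells, which the rule bars through Cd3e, had 416 and 399.9 CPM. Cd101, an immunoglobulin-family surface protein, had 60.5 CPM in chemoresistant and 47.8 CPM in primary cDC2.

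Adhesion and regulatory genes made up most of the rest. The catenin Ctnnd2 had 436 CPM in chemoresistant and 450 CPM in primary cDC2, and at most 125 CPM in the other classes. Adgrl3, an adhesion G protein-coupled receptor, had 49.8 CPM in chemoresistant and 158 CPM in primary cDC2. Hivep2, a zinc finger factor gene, stood at 589 and 886 CPM, but B cells of these libraries also held 314 and 592 CPM. Ddr1, a collagen receptor kinase, missed the 2-fold line against primary migratory dendritic cells, with a log2 ratio of 0.99 there. The remaining gene, I830077J02Rik, had 68.3 CPM in chemoresistant and 84.8 CPM in primary cDC2.

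**Figure D1:**
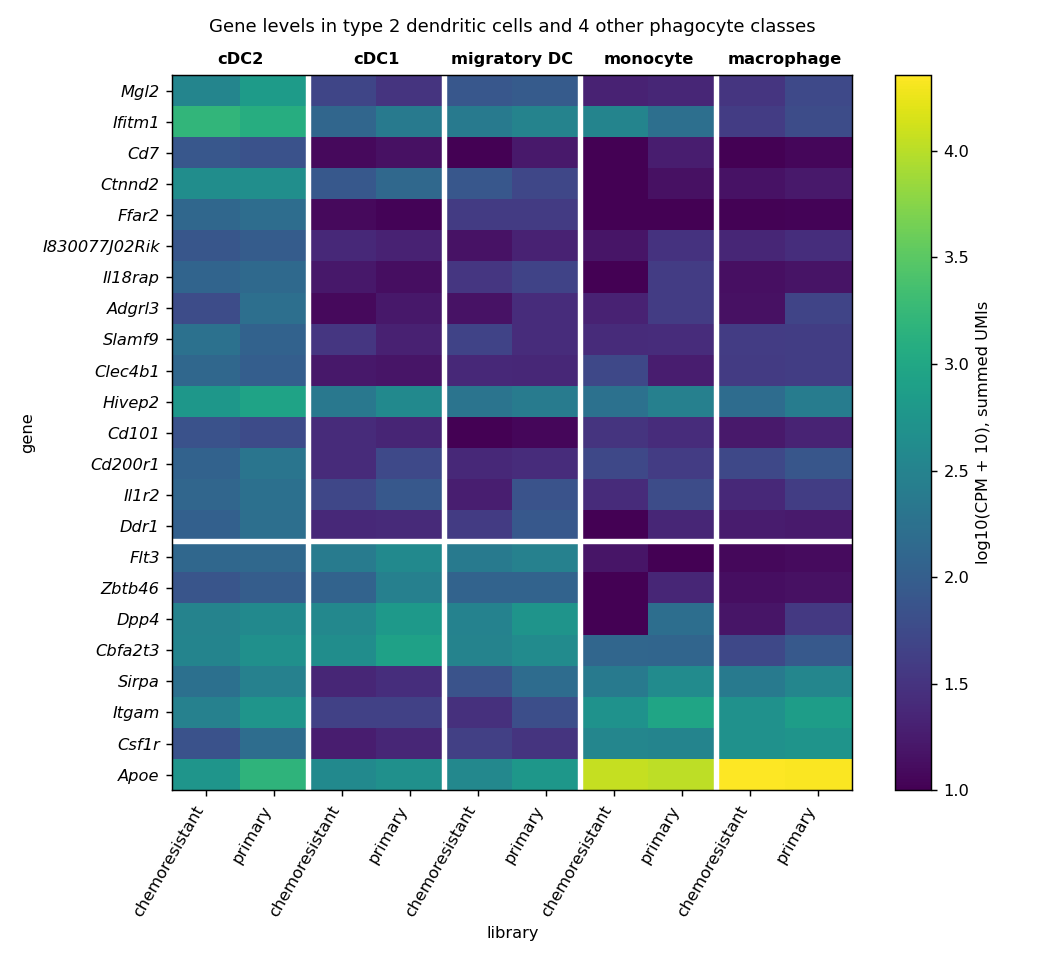
Levels of 23 genes in cDC2 and 4 other phagocyte classes, as log10 of summed CPM + 10, with the chemoresistant library left of the primary library in each class. The upper 15 genes are those highest in cDC2 against all other classes, led by Mgl2 and Ifitm1; the lower 8 are conventional dendritic cell genes (Flt3 to Cbfa2t3), genes shared with macrophages (Sirpa, Itgam) and macrophage genes (Csf1r, Apoe).

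cDC2 made up 2.47% of kept barcodes in the chemoresistant library (95% interval 2.23 to 2.73) and 2.82% in the primary library (2.54 to 3.12), by the exact Clopper-Pearson method. The difference of −0.347 percentage points had an interval of −0.734 to 0.0364, which includes 0, by Newcombe's method from the Clopper-Pearson bounds. It depended on the rule: with no C1q UMI allowed, 182 chemoresistant and 104 primary cells were left and the difference was 0.410 (0.169 to 0.650), and with the rule applied after thinning every barcode to 3000 UMIs it was −0.951 (−1.48 to −0.420). With a marker sum of at least 5 it was −0.649 (−1.01 to −0.294), and with the sum taken without Klrd1 −0.579 (−0.958 to −0.205), both intervals that do not include 0. Among the 3 dendritic cell classes, cDC2 were 67.4% of 546 chemoresistant and 63.3% of 570 primary cells. Among all 5 phagocyte classes they were 10.3% of 3564 chemoresistant and 20.6% of 1756 primary cells. The macrophage class held 2963 chemoresistant and 1154 primary cells in that denominator. Shares of cells depend on tissue digestion and on every other cell type present, and that part was not tested.

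Between the libraries, 44 of 6151 genes (0.715%) were at least 2-fold higher in chemoresistant cDC2 and 60 (0.975%) at least 2-fold lower, together 104 (1.69%). Past 1.5-fold, 180 genes (2.93%) were higher and 600 (9.75%) lower, together 780 (12.7%). Scaling by median-of-ratios size factors turned the split at 1.5-fold round to 432 higher and 176 lower of 6151. This scaling moves ratios up by at most 0.24 on the log2 scale, and by less where a level is near the 10 CPM added. The counts of each list below are to be read against these shares and, where scaled counts are given, against that split. The genes named next were the 12 highest and the 12 lowest of 18 and 28 that passed a fixed rule on level, interval and fold.

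All 12 genes at the top were also higher in chemoresistant than in primary B cells, with log2 ratios there of 0.65 to 2.61. Lgals7, a galectin of stratified epithelium, had 168 CPM in chemoresistant and 18.6 CPM in primary cDC2, and 209 and 25.8 CPM in B cells of these libraries. Krt19, a keratin, had 79.5 and 21.8 CPM in cDC2 and 116 and 21.5 CPM in B cells. Tm4sf1, Cald1, Clu, Spp1 and Chchd10 had log2 ratios of 1.43 to 2.26 in cDC2 and 0.65 to 2.18 in B cells. Single cells held much of the rest. For Nupr1, a stress-response gene, 1 cell gave 52.7% of the UMIs behind 286 CPM in chemoresistant cDC2, against 24.4 CPM in primary cDC2. For the acute-phase gene Saa3, 1 cell gave 50.7% of the UMIs behind 204 CPM in chemoresistant cDC2, against 38.1 CPM in primary cDC2, and without the macrophage-rich cells described below the levels were 71.3 and 28.9 CPM. For Lgals1 this share was 40.1% of 1346 CPM in chemoresistant cDC2, against 321 CPM in primary cDC2, and for the matrix gene Sparc 25.5% of 153 CPM, against 34.1 CPM. Ly6a (Sca-1), an interferon-induced surface protein, was spread over 135 chemoresistant and 75 primary cells, at 223 and 51.9 CPM in cDC2, 583 and 135 CPM in macrophages and 447 and 194 CPM in B cells.

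The lowest genes divided in the same way. Fabp2, a gene of intestinal enterocytes, and Apoa1, an apolipoprotein gene of liver and intestine, had no UMI in chemoresistant cDC2 against 168 and 162 CPM in primary cDC2. Against a floor of 3 counts they were at least 99.9-fold and 96.4-fold lower in chemoresistant cDC2. In primary cDC2, 1 cell held 65.9% of the Fabp2 and 83.5% of the Apoa1 UMIs, and primary B cells carried 87.8 and 39.2 CPM of them. Cmss1 had 197 CPM in chemoresistant and 1673 CPM in primary cDC2, and 499 and 1922 CPM in B cells. Gphn, Lars2 and Cdk8 had log2 ratios of −2.37, −2.57 and −1.62 in cDC2 and of −1.36, −1.56 and −0.91 in B cells. Myo1e had 33.0 CPM in chemoresistant and 99.4 CPM in primary cDC2, and was also lower in chemoresistant B cells. Adgrl3, named above among the genes highest in cDC2, was lower in the chemoresistant library with a log2 ratio of −1.49, while B cells had 0 and 7.25 CPM. Apoe, Lyz2 and Arg1, also among the lowest, are macrophage genes and are taken up with the macrophage-rich cells.

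Conventional lineage genes differed little between the libraries. Of 17 classical dendritic cell genes compared, 0 were at least 1.5-fold higher and 2 were lower in chemoresistant cDC2, beside 2.93% and 9.75% of all genes, and their median log2 ratio was −0.20, the value for all genes. Batf3, a factor needed in type 1 cells, had 96.9 CPM in chemoresistant and 96.8 CPM in primary cDC2. The interval of Flt3 was 106 to 139 CPM in chemoresistant and 113 to 137 CPM in primary cDC2, so that they overlapped. Dpp4 (CD26) had 311 and 380 CPM in these cells. The lower pair were Itgax (CD11c), with 120 CPM in chemoresistant and 190 CPM in primary cDC2, and the co-repressor Cbfa2t3, with 314 and 478 CPM, and neither passed 1.5-fold under median-of-ratios scaling.

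Of 18 genes typical of the type 2 subset compared, 0 were at least 1.5-fold higher and 6 were lower in chemoresistant cDC2, beside 2.93% and 9.75% of all genes, with a median log2 ratio of −0.37. Under median-of-ratios scaling 1 was higher (Ifitm1) and 4 were lower (Itgam, Mgl2, Plet1 and Epcam), beside 432 and 176 of all 6151 genes. Mgl2 had the log2 ratio −1.04, and was detected after thinning in 30.1% of chemoresistant cDC2 (95% interval 24.9 to 35.6) and 47.3% of primary cDC2 (42.0 to 52.7). Without thinning these shares were 35.9% and 54.8%, and thinned B cells gave 0 of 74 and 9 of 707. Itgam, the CD11b integrin chain, had 287 CPM in chemoresistant and 556 CPM in primary cDC2. Its ratio in macrophages had the same direction, with 488 and 731 CPM. Sirpa, the receptor for CD47, had a log2 ratio of −0.74. Epcam had 8.96 CPM in chemoresistant and 59.0 CPM in primary cDC2, of which 1 cell held 47.1%. Plet1 had 10.6 and 30.7 CPM. On the other side, Ifitm1 (log2 ratio 0.41), the factor Klf4 (135 CPM in chemoresistant and 107 CPM in primary cDC2) and S100a4 (2193 and 1833 CPM) were higher without reaching 1.5-fold.

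The Tbx21 subset of cDC2 known from mouse spleen could hardly be read at this depth. Tbx21 had 8.40 CPM in chemoresistant and 8.88 CPM in primary cDC2. Only 3 of 10 genes of this subset reached the level filter.

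**Figure D2:**
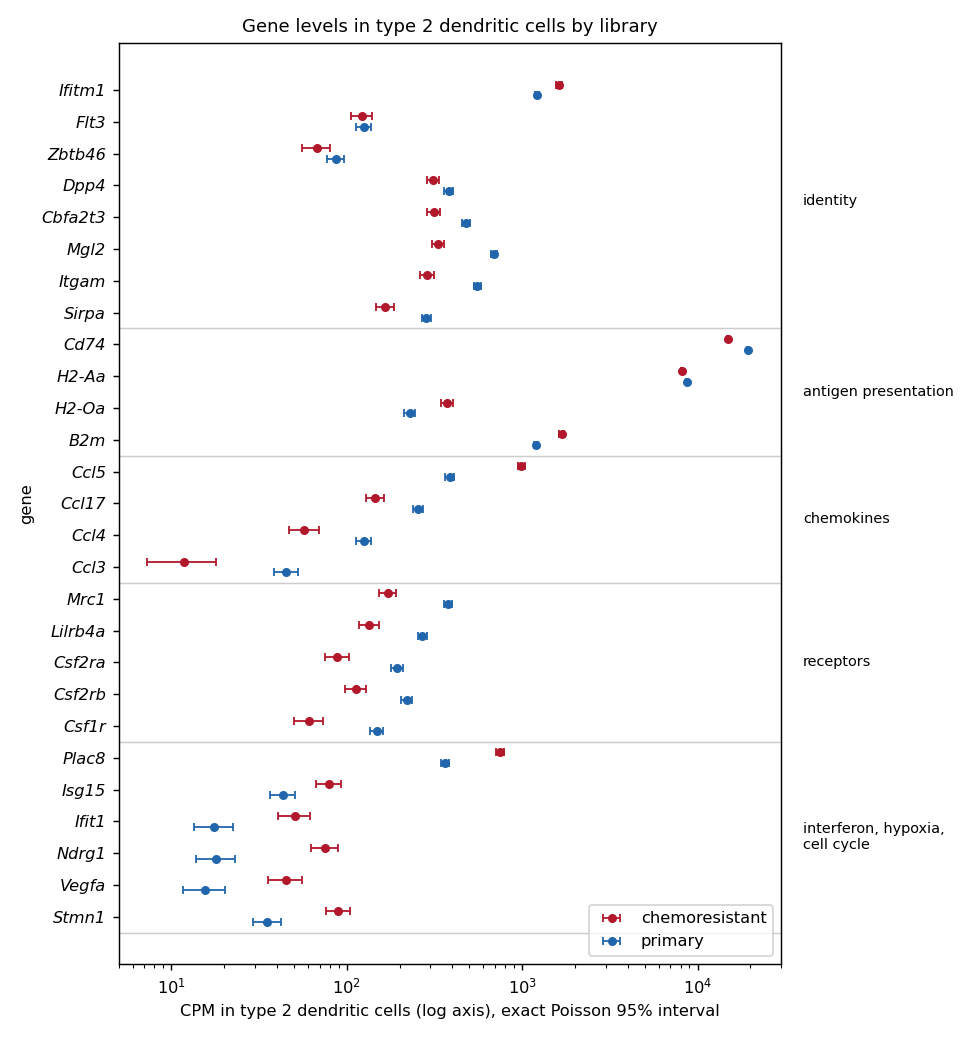
Levels of 27 genes in cDC2 of the chemoresistant (red) and primary (blue) library in CPM on a log axis, with exact Poisson 95% intervals that cover counting error only. Flt3 overlaps between libraries, Ccl5, Plac8 and H2-Oa lie to the right in the chemoresistant library, and Mgl2, Itgam, Mrc1, Csf2ra and Csf2rb to the left.

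MHC class II genes were close to the background of all genes, with a single exception past 1.5-fold. Of 16 compared, 1 was at least 1.5-fold higher and 0 were lower in chemoresistant cDC2, beside 2.93% and 9.75% of all genes. The list's median log2 ratio was −0.15, and its counts were the same under median-of-ratios scaling. The higher gene was H2-Oa, the alpha chain of H2-O, which restrains the peptide exchanger H2-M. H2-Oa had 375 CPM (95% interval 347 to 404) in chemoresistant cDC2 and 229 CPM (213 to 245) in primary cDC2. It was detected after thinning in 58.4% of chemoresistant and 42.8% of primary cDC2, and without thinning in 69.0% and 67.0%. In cDC1 it had 269 CPM in the chemoresistant and 131 CPM in the primary library, whereas B cells had 203 and 205 CPM. Its partner H2-Ob had 116 CPM in chemoresistant and 90.8 CPM in primary cDC2, short of 1.5-fold. The classical alpha chain H2-Aa had 8183 and 8737 CPM, and the invariant chain Cd74 had 14946 and 19356 CPM. Ciita, the coactivator that class II genes share, had 421 CPM in chemoresistant and 596 CPM in primary cDC2, with a log2 ratio of −0.49.

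Promoters of H2-Oa and H2-Aa are shown since these class II genes differ in ratio while sharing the coactivator. Capitals mark the Y-box core, CCAAT read on either strand, in RefSeq windows of the same length on GRCm38.p6.
H2-Oa: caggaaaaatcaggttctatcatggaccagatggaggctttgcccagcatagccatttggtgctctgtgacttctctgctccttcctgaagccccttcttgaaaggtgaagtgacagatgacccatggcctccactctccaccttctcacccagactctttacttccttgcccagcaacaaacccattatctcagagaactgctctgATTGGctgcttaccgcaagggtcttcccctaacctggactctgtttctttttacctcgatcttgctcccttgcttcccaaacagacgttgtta
H2-Aa: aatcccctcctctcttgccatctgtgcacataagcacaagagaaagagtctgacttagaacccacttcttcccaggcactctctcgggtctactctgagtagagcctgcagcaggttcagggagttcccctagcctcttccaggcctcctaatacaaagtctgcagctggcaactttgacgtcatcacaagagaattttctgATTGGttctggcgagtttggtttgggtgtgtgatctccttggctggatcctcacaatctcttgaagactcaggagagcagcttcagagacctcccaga
The windows are chr17:34092129-34092428 on the plus strand for H2-Oa and chr17:34287774-34288073 on the minus strand for H2-Aa. The core begins 43 bases before the start in H2-Oa and 48 before it in H2-Aa. It occurred in 37.4% of all mouse promoter windows, and nothing about binding follows from it.

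Of 22 MHC class I genes compared, 0 passed 1.5-fold in either direction, beside 2.93% higher and 9.75% lower of all genes. Under median-of-ratios scaling 4 were higher (B2m, H2-Q7, Psmb9 and Psme2) and 0 lower, beside 432 and 176 of all 6151 genes. In the main scaling 14 had a positive log2 ratio, with a median of 0.13 against −0.20 for all genes. B2m, the light chain of class I, had 1679 CPM in chemoresistant and 1202 CPM in primary cDC2, and 1375 and 891 CPM in B cells. Psmb9, an immunoproteasome subunit, had 253 and 181 CPM in cDC2. The list's median ratio was 0.03 in cDC1 and 0.17 in B cells.

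Costimulatory genes, like those of MHC class II, had a median near that of all genes. Of 25 compared, 1 was at least 1.5-fold higher and 4 were lower in chemoresistant cDC2, beside 2.93% and 9.75% of all genes. The list's median log2 ratio was −0.27. Under median-of-ratios scaling 2 were higher and 2 lower, beside 432 and 176 of all 6151 genes. Cd86 had 198 CPM in chemoresistant and 228 CPM in primary cDC2, and Cd80 had 51.0 and 65.3 CPM, both ligands of CD28. Cd274 (PD-L1) had 116 and 142 CPM. The gene past 1.5-fold upward was Slamf9, and the lower ones were the inhibitory receptors Lilrb4a (134 and 270 CPM), Lilrb4b (67.2 and 112 CPM) and Cd200r1, and Pdcd1lg2 (PD-L2), with 20.7 CPM in chemoresistant and 45.8 CPM in primary cDC2.

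Of 13 chemokine genes compared, 1 was at least 1.5-fold higher and 4 were lower in chemoresistant cDC2, beside 2.93% and 9.75% of all genes. Under median-of-ratios scaling 2 were higher and 3 lower, beside 432 and 176 of all 6151 genes. Ccl5, which attracts T cells and monocytes, had 989 CPM (943 to 1036) in chemoresistant cDC2 and 386 CPM (365 to 407) in primary cDC2, a log2 ratio of 1.34. It was detected after thinning in 112 of 296 chemoresistant cDC2 (37.8%, interval 32.3 to 43.6) and 69 of 353 primary cDC2 (19.5%, 15.5 to 24.1). The unthinned shares were 40.8% and 33.8%, and B cells thinned in the same way gave 6.76% and 5.66%. The highest cell held 12.1% of its UMIs in the chemoresistant and 11.2% in the primary library. Migratory dendritic cells, whose levels were the highest of the phagocytes, had 7646 CPM in the chemoresistant and 4027 CPM in the primary library. Ccl22, another gene of migratory cells, had 30.2 and 24.1 CPM in cDC2.

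Ccl17, a ligand of Ccr4, had 145 CPM in chemoresistant and 256 CPM in primary cDC2. Ccl3 and Ccl4, chemokines that attract monocytes and T cells, had 11.8 and 57.1 CPM in chemoresistant cDC2, against 45.0 and 125 CPM in primary cDC2, and 1 cell held 33.3% of the chemoresistant and 39.5% of the primary Ccl4 UMIs. Pf4 had 34.7 CPM in chemoresistant and 85.4 CPM in primary cDC2, at a level that B cells also reached with 62.1 and 79.8 CPM. Of 27 cytokine genes, 20 did not reach the level filter. Among those that did, Il1b had 339 CPM in chemoresistant and 404 CPM in primary cDC2 and Tgfb1 had 118 and 144 CPM. Il12b, the shared subunit of interleukins 12 and 23, had 2 UMIs in chemoresistant and 1 UMI in primary cDC2.

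Receptor genes past 1.5-fold were lower in chemoresistant cDC2, and several of these calls depended on scaling. Of 13 chemotactic receptor genes compared, 0 were at least 1.5-fold higher and 5 were lower, beside 2.93% and 9.75% of all genes, with a median log2 ratio of −0.54, and 2 were lower under median-of-ratios scaling (Cx3cr1 and C5ar1). Without the macrophage-rich cells described below, Cx3cr1 had 10.9 CPM in chemoresistant and 20.6 CPM in primary cDC2, under 1.5-fold with 10 CPM added. Ccr1, a receptor for Ccl3 and Ccl5, had 87.9 CPM in chemoresistant and 143 CPM in primary cDC2. Gpr183 (EBI2), which guides cDC2 towards oxysterols, had 90.2 and 141 CPM in cDC2 and 148 and 595 CPM in B cells. Of 27 growth factor and cytokine receptor genes, 0 were higher and 7 were lower, and 5 were lower under that scaling. Csf2ra and Csf2rb, the chains of the receptor for GM-CSF, had 87.9 and 113 CPM in chemoresistant cDC2, against 194 and 219 CPM in primary cDC2. After thinning, Csf2ra was detected in 23.3% of chemoresistant and 41.9% of primary cDC2, and in 32.9% and 77.3% without thinning. In cDC1 Csf2ra had 118 CPM in the chemoresistant and 233 CPM in the primary library, and Csf2rb had 131 and 115 CPM. Csf1r, the macrophage growth factor receptor, had 61.0 CPM in chemoresistant and 148 CPM in primary cDC2. Il1rl1, the interleukin 33 receptor, had 13.4 and 33.2 CPM in cDC2 and at most 1.61 CPM in macrophages.

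Of 28 lectin and Fc receptor genes compared, 0 were at least 1.5-fold higher and 9 were lower, beside 2.93% and 9.75% of all genes. The split became 4 higher and 5 lower under median-of-ratios scaling, beside 432 and 176 of all 6151 genes. Mrc1, the mannose receptor, had 171 CPM (153 to 192) in chemoresistant cDC2 and 377 CPM (357 to 398) in primary cDC2. Cd209c, a paralogue of Cd209a, had 12.9 and 37.0 CPM and at most 1.41 CPM in the other phagocyte classes. Fcgr3 and Fcgr2b, low-affinity IgG receptors, had 43.1 and 122 CPM in chemoresistant cDC2, against 102 and 195 CPM in primary cDC2. Ly75 (DEC-205) and Fcgr4 lay on the other side with log2 ratios of 0.52 and 0.46. Of 18 pattern sensors and adaptors, 0 were higher and 2 were lower (Tlr13, log2 ratio −0.67, and the kinase Syk, −0.65), and none passed 1.5-fold after that scaling.

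Transcription factors had a median close to that of all genes. Of 44 compared, 0 were at least 1.5-fold higher and 7 were lower, beside 2.93% and 9.75% of all genes. The list's median log2 ratio was −0.22. Under median-of-ratios scaling 1 was higher and 1 lower, beside 432 and 176 of all 6151 genes. Irf4, which cDC2 depend on, had 37.5 CPM (29.1 to 47.6) in chemoresistant and 51.3 CPM (44.0 to 59.4) in primary cDC2. Zeb2 had 639 and 999 CPM, and its macrophage levels of 1573 and 2330 CPM had the same direction. Ahr and Stat6 had log2 ratios of −0.73 and −0.71, and Id2 had 483 CPM in chemoresistant and 364 CPM in primary cDC2. Of 27 NF-kB targets, 0 were higher and 4 were lower, among them Bcl3 (37.5 and 78.8 CPM) and Nfkbia (167 and 287 CPM), and under that scaling Bcl3 alone was lower. Of 31 immediate early and heat shock genes, 0 were higher and 2 were lower, Egr2 (16.2 and 36.4 CPM) and Atf3 (74.5 and 120 CPM), and under that scaling 1 was higher (Hspe1) and 1 lower (Egr2).

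Of 44 type I interferon genes compared, 6 were at least 1.5-fold higher and 1 was lower in chemoresistant cDC2, beside 2.93% and 9.75% of all genes, with a median log2 ratio of 0.07. The counts became 9 and 0 under median-of-ratios scaling, beside 432 and 176 of all 6151 genes. Ly6a was described above. Isg15, a ubiquitin-like modifier, had 79.0 CPM in chemoresistant and 43.3 CPM in primary cDC2, and Zbp1, a sensor of Z-form nucleic acid, had 77.8 and 46.7 CPM. After thinning Isg15 was detected in 16.6% of chemoresistant and 9.92% of primary cDC2, and in 20.9% and 23.5% without thinning. Ifit1 had 50.4 and 17.5 CPM and Rsad2 32.5 and 14.3 CPM in these cells, but 1 cell held 43.3% of the Ifit1 and 55.2% of the Rsad2 UMIs of the chemoresistant library. Ifit3 was the sixth, with 29.1 CPM in chemoresistant and 14.6 CPM in primary cDC2, and Parp14 was the lower gene. In the same list, the median log2 ratio was 0.18 in cDC1, −0.15 in migratory dendritic cells, 0.83 in monocytes, −0.02 in macrophages, −0.06 in B cells and −0.49 in T cells. Plac8, a small cysteine-rich protein gene of monocytes and dendritic cells, had 750 CPM (710 to 791) in chemoresistant and 363 CPM (344 to 384) in primary cDC2. cDC1 had 1676 and 792 CPM of Plac8, and B cells 645 and 413 CPM. Of 10 interferon gamma genes compared, 0 were higher and 1 was lower (Gbp7, with 22.4 and 49.0 CPM), and under that scaling 1 was higher (Gbp2) and Gbp7 lower.

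**Figure D3:**
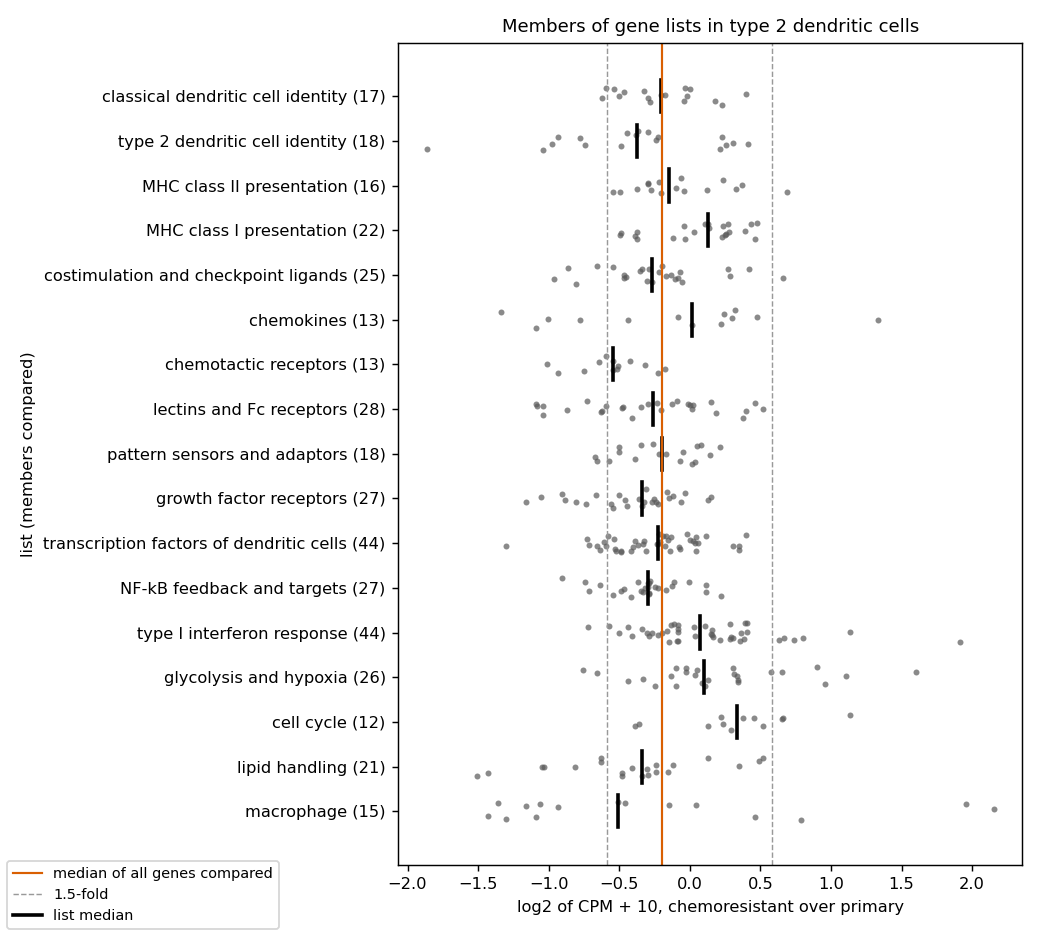
Log2 ratios of chemoresistant over primary in cDC2 for the members of 17 gene lists (points), with each list's median (black bar), the median of all 6151 genes compared (orange line, −0.20) and 1.5-fold (dashed lines). Cell cycle, hypoxia, interferon and MHC class I medians lie right of the orange line, and chemotactic receptor and macrophage medians left of it.

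Of 26 glycolysis and hypoxia genes compared, 5 were at least 1.5-fold higher and 2 lower in chemoresistant cDC2, beside 2.93% and 9.75% of all genes. The list's median log2 ratio was 0.10. Under median-of-ratios scaling 7 were higher and 0 lower, beside 432 and 176 of all 6151 genes. Pgk1, a glycolytic kinase, had 319 CPM in chemoresistant and 166 CPM in primary cDC2, 142 and 73.3 CPM in B cells and 535 and 273 CPM in macrophages. Vegfa had 44.8 and 15.5 CPM and Ero1a 92.4 and 42.7 CPM in cDC2, and Ndrg1 had a log2 ratio of 1.60, all hypoxia-induced genes. Ndrg1 and Vegfa were also higher in B cells (59.5 and 7.25 CPM, and 36.3 and 8.59 CPM), and 1 cell held 26.1% and 22.5% of their chemoresistant UMIs. The factor Hif1a itself was lower, with 163 CPM in chemoresistant and 263 CPM in primary cDC2. The list's median ratio was 0.27 in cDC1, 0.86 in migratory dendritic cells, 0.08 in monocytes, 0.17 in macrophages, 0.52 in B cells and −0.17 in T cells.

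Of 21 lipid handling genes compared, 0 were at least 1.5-fold higher and 7 lower in chemoresistant cDC2, beside 2.93% and 9.75% of all genes. The list's median log2 ratio was −0.34. Under median-of-ratios scaling 2 were higher and 5 lower, beside 432 and 176 of all 6151 genes. Besides Apoe the 7 lower genes were ones shared with macrophages, such as the scavenger receptor Msr1 (8.96 and 43.8 CPM) and the cholesterol exporter Abca1 (16.2 and 44.1 CPM), and the lipid droplet protein Plin2 (98.0 and 157 CPM). Npc2 and Alox5ap were on the other side, with 439 and 697 CPM in chemoresistant cDC2, against 304 and 495 CPM in primary cDC2, short of 1.5-fold. Of 20 lysosomal protease and inhibitor genes, 0 were higher and 1 was lower (the cathepsin Ctsc, with 321 and 515 CPM), and the inhibitor Cst3 had 6399.8 and 5094 CPM. Of 36 adhesion and cytoskeleton genes, 3 were higher and 4 were lower. The tetraspanin Cd81 had 66.1 CPM in chemoresistant and 23.2 CPM in primary cDC2, and 132 and 98.0 CPM in B cells. The hyaluronan receptor Cd44 had 89.0 and 159 CPM and the integrin chain Itgb1 227 and 351 CPM in cDC2, and under median-of-ratios scaling 5 of the 36 were higher and Itgam alone was lower.

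Cisplatin damages DNA, and p53 target genes were read for that reason. Of 11 compared, 0 were at least 1.5-fold higher or lower in chemoresistant cDC2, beside 2.93% and 9.75% of all genes. Their median log2 ratio was −0.12. Under median-of-ratios scaling 1 was higher (Rps27l) and 0 lower, beside 432 and 176 of all 6151 genes. Cdkn1a (p21) had 82.9 CPM (70.1 to 97.4) in chemoresistant and 109 CPM (98.2 to 120) in primary cDC2, Mdm2 44.2 and 52.1 CPM, and Bax 139 and 123 CPM. Of 12 cell cycle genes compared, 3 were at least 1.5-fold higher and 0 were lower, beside 2.93% and 9.75% of all genes. Under that scaling 6 were higher and 0 lower, beside 432 and 176 of all 6151 genes. Stmn1, a microtubule regulator, had 89.6 and 35.2 CPM, Tubb5 310 and 193 CPM, and Pclaf, a replication factor, 27.4 and 13.8 CPM. Mki67, the proliferation antigen, went the other way with 23.5 CPM in chemoresistant and 33.8 CPM in primary cDC2. After thinning, 23 of 296 chemoresistant cDC2 (7.77%, interval 4.99 to 11.4) and 24 of 353 primary cDC2 (6.80%, 4.40 to 9.95) had a UMI of Mki67, Top2a or Cdk1. The unthinned shares were 9.51% and 15.5%.

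A small number of cells met the rule while carrying many macrophage transcripts. A limit of 1% of UMIs from 21 macrophage genes, set after the values had been seen, marked 6 of 368 chemoresistant cDC2 (1.63%) and 25 of 361 primary cDC2 (6.93%). The same limit marked 0 cDC1 in either library, and 87.8% of chemoresistant and 85.4% of primary macrophages. It also marked 78.2% of chemoresistant and 53.1% of primary monocytes without C1q, so it was not particular to macrophages. Of migratory dendritic cells it marked 0% in the chemoresistant and 1.64% in the primary library. In the 25 primary cells, which macrophage genes had chosen, Apoe stood at 14513 CPM, Lyz2 at 9101 CPM and Csf1r at 584 CPM. Flt3 and Cd209a had 1 UMI each there, and Klrd1 and Cd7 none. Napsa was found in 23 of the 25 and Clec10a in 9, so that these cells entered the rule mainly through Napsa.

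Differences in macrophage genes between the libraries were smaller without these cells. Macrophage genes chose the cells left out, and more of them were primary, so this change follows from the choice and is a description only. Apoe, a lipid carrier, had 557 CPM in chemoresistant and 1519 CPM in primary cDC2, and 412 and 554 CPM without the macrophage-rich cells. Lyz2 (lysozyme) had 451 and 1169 CPM, and 282 and 580 CPM without them. Arginase 1, Arg1, had 68.3 and 191 CPM, and 54.6 and 67.7 CPM without them. Saa3, Cx3cr1 and Fcgr2b also moved, with 71.3, 10.9 and 121 CPM in chemoresistant and 28.9, 20.6 and 177 CPM in primary cDC2 without these cells, and Fcgr2b and Cx3cr1 were then under 1.5-fold with 10 CPM added. The ratios of the genes listed next moved less, except that of Csf1r. Without the macrophage-rich cells Mgl2 had 337 CPM in chemoresistant and 737 CPM in primary cDC2, Mrc1 172 and 371 CPM, Itgam 289 and 541 CPM and Csf2ra 86.8 and 190.2 CPM. Ccl5 had 1013 and 409 CPM, Plac8 746 and 334 CPM and H2-Oa 382 and 244 CPM in that set. Csf1r had 56.9 and 116 CPM. Leaving out these cells changed the counts past 2-fold from 44 to 42 higher and from 60 to 43 lower. B cells carried 1829 CPM of Apoe in the chemoresistant and 1165 CPM in the primary library, and 199 and 93.7 CPM of Lyz2. In them both genes were higher in the chemoresistant library, opposite to cDC2, and the part of carried RNA was not tested.

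**Figure D4:**
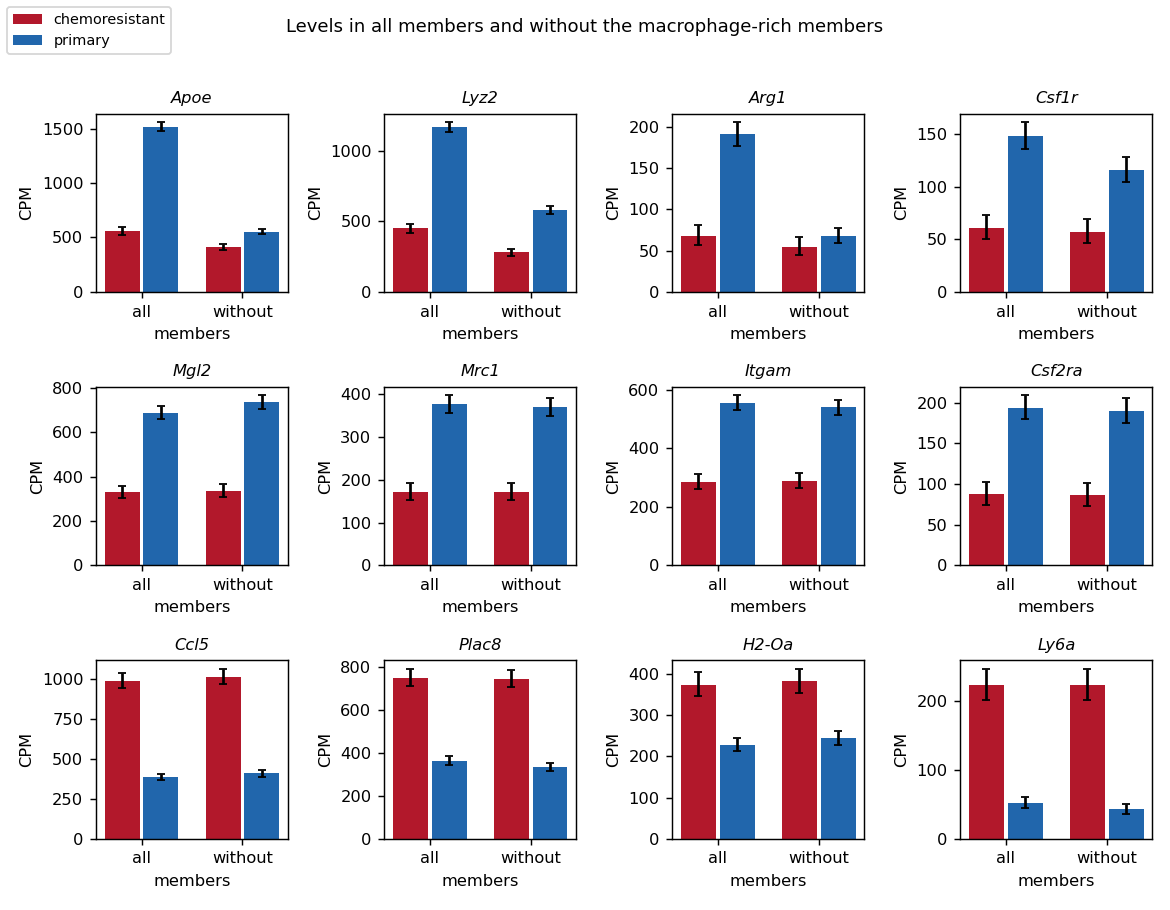
CPM of 12 genes in all cDC2 (members) and without the macrophage-rich cells (6 chemoresistant, 25 primary), chemoresistant in red and primary in blue, with exact Poisson 95% intervals. The blue bars of Apoe, Lyz2 and Arg1 drop without these cells, while both bars of Mgl2, Mrc1, Itgam, Csf2ra, Ccl5, Plac8, H2-Oa and Ly6a stay near their height. The cells left out were chosen by macrophage genes, so a drop in such genes follows from the choice.

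Within cDC2, cells were divided by which of the lectins Cd209a and Clec10a had more UMIs. After thinning to 3000 UMIs, Cd209a was detected in 116 of 296 chemoresistant and 150 of 353 primary cDC2, and Clec10a in 127 and 190. Cd209a had more UMIs than Clec10a in 82 of 296 chemoresistant (27.7%, interval 22.7 to 33.2) and 86 of 353 primary cDC2 (24.4%, 19.97 to 29.2). Clec10a led in 85 chemoresistant (28.7%, 23.6 to 34.2) and 136 primary cells (38.5%, 33.4 to 43.8). Neither was detected in 106 chemoresistant (35.8%) and 108 primary cells (30.6%), both were in 53 and 95, and 23 in each library had equal counts. With so few UMIs per gene, a cell without a UMI of a lectin may still express it. Among 3252 genes, 1 (0.0308%) was at least 2-fold higher in Cd209a-led than in Clec10a-led cells in both libraries and 5 (0.154%) were at least 2-fold lower.

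Mgl2 went with Cd209a. It had 553 CPM in Cd209a-led and 272 CPM in Clec10a-led cells of the chemoresistant library, and 1452 and 453 CPM in those of the primary library. Its log2 ratio was 1.00 in the chemoresistant library, just under the 2-fold line, and 1.66 in the primary library. The gene past the line in both was Plxna4, a semaphorin receptor, with 68.0 CPM in Cd209a-led and 17.4 CPM in Clec10a-led chemoresistant cells, and 100.2 and 44.2 CPM in primary cells. Hdac8, Rbbp8, Fam117b and Daglb were next, with smaller log2 ratios over both libraries of 0.68 to 0.82. Of these, Fam117b had 122 CPM in Cd209a-led and 56.7 CPM in Clec10a-led chemoresistant cells, and 116 and 67.9 CPM in primary cells.

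The genes at least 2-fold lower in Cd209a-led than in Clec10a-led cells in both libraries were Cxcl2, F13a1, Fn1, Arg1 and Fabp5. Cxcl2, a neutrophil chemokine, had 51.6 CPM in Cd209a-led and 697 CPM in Clec10a-led chemoresistant cells, and 72.8 and 219 CPM in primary cells. It rested on few cells, with a UMI in 10 of 85 Clec10a-led chemoresistant cells and 45.6% of the UMIs in 1 of them. Fn1, fibronectin, had 30.5 CPM in Cd209a-led and 211 CPM in Clec10a-led chemoresistant cells, and 48.9 and 139 CPM in primary cells. F13a1 and Arg1 followed the same order. Fabp5, a fatty acid binding protein, had 42.2 and 131 CPM in the chemoresistant and 118 and 252 CPM in the primary library, and 1 cell held 61.7% of the UMIs in the Clec10a-led chemoresistant cells. Macrophage-rich cells numbered 0 of the Cd209a-led and 3 of the Clec10a-led chemoresistant cells, and 1 and 4 of the primary ones. Without them the Cd209a-led levels of the chemoresistant library were as above (30.5 CPM of F13a1 and 44.5 CPM of Arg1), and those of the primary library were 74.0 CPM of Cxcl2, 48.5 CPM of Fn1, 15.8 CPM of F13a1 and 32.8 CPM of Arg1. The Clec10a-led levels were then 397 CPM of Cxcl2, 121 CPM of Fn1, 54.8 CPM of F13a1 and 103 CPM of Arg1 in the chemoresistant library, and 158, 112, 28.4 and 47.9 CPM in the primary library. In that set F13a1 in both libraries and Arg1 in the primary library were under 2-fold with 10 CPM added. Mrc1 ran the other way, with 274 CPM in Cd209a-led and 190 CPM in Clec10a-led chemoresistant cells, and 502 and 403 CPM in primary cells. Lst1 had 58.6 CPM in Cd209a-led and 116 CPM in Clec10a-led chemoresistant cells, and 57.3 and 109 CPM in primary cells.

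Cells with neither lectin detected had the highest Ccl5. Their Ccl5 level was 1545 CPM in the chemoresistant and 772 CPM in the primary library, with a UMI in 67 of 106 and 41 of 108 cells. Clec10a-led cells had 327 and 162 CPM. Cd209a-led cells had 1010 and 229 CPM, of which 1 cell held 49.7% and 55.7%. In each of these groups the chemoresistant level was above the primary one. The cells with neither lectin also had the most Fabp5, at 533 and 705 CPM, and less Mrc1, at 55.5 CPM in the chemoresistant and 274 CPM in the primary library, than Cd209a-led cells with 274 and 502 CPM. Itgam ran in the same order, with 143 and 447 CPM in cells with neither lectin and 387 and 641 CPM in Cd209a-led cells. Flt3 was present at 151 CPM in chemoresistant and 148 CPM in primary cells with neither lectin, and 3 of the chemoresistant and 20 of the primary ones were macrophage-rich. H2-Oa and Plac8 were higher in the chemoresistant library in all these groups, with H2-Oa at 330 to 408 CPM in chemoresistant and 196 to 261 CPM in primary cells.

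**Figure D5:**
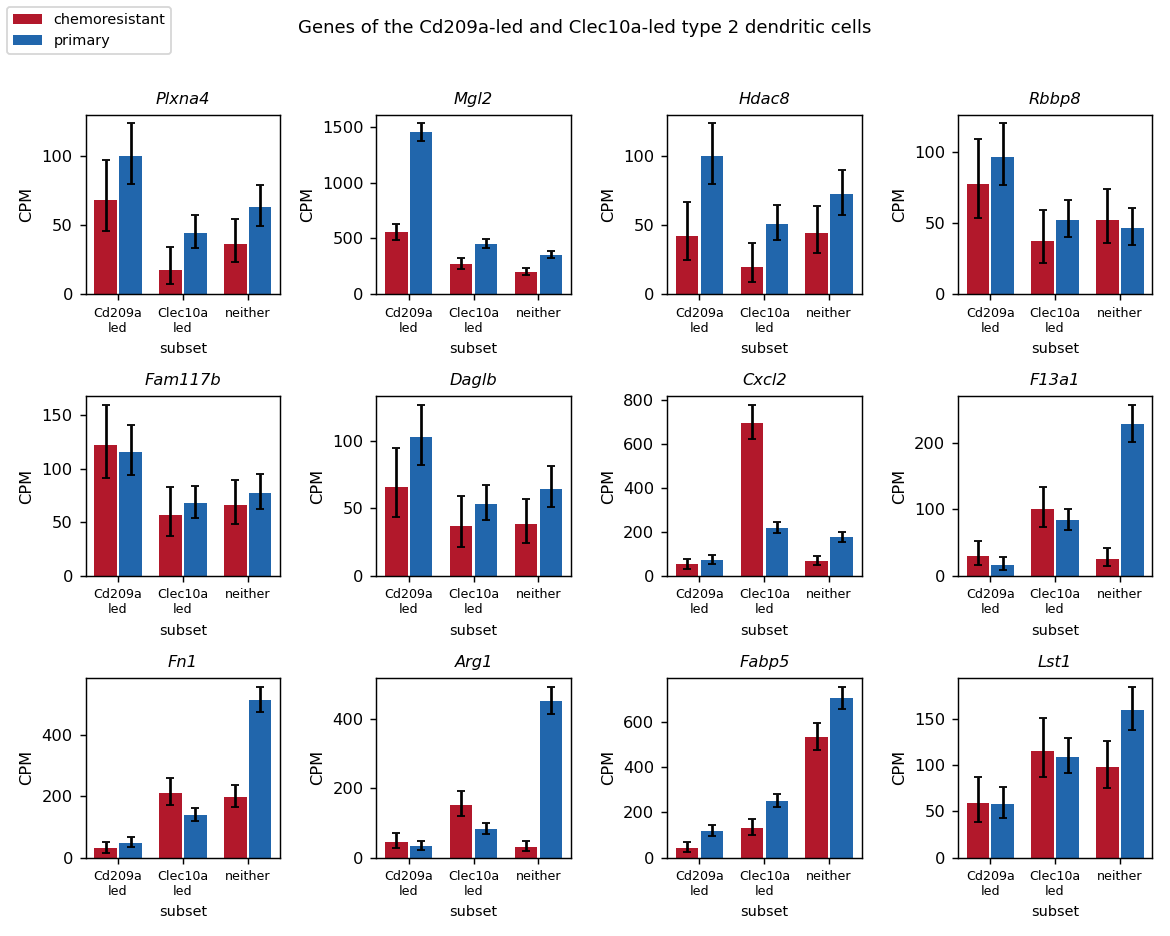
CPM of 12 genes named for the difference between Cd209a-led and Clec10a-led cDC2, also shown for cells with neither lectin detected, chemoresistant in red and primary in blue, with exact Poisson 95% intervals. Mgl2 and Plxna4 are highest in Cd209a-led cells of both libraries, and Fn1, Arg1 and F13a1 are highest in primary cells with neither lectin, 20 of which are macrophage-rich.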

How the data were processed

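The authors deposited raw counts of UMIs for each gene in each barcode, with values that are whole numbers. The submitters' processing notes name Cell Ranger 8.0.1 and mm10. From there, barcodes were filtered and classed by transcripts, and raw counts were summed over the cells of a class in each library and scaled to CPM. Ratios are log2 of CPM + 10. Genes with a mean of at least 20 CPM over both libraries and outside the rule were compared, all genes at 2-fold and list members at 1.5-fold. Intervals are exact Poisson for levels and Clopper-Pearson for shares, at 95%, and cover counting error only. Those of differences in share combine the Clopper-Pearson bounds of both libraries by Newcombe's method. With 1 pooled library per group there are no replicates and no tests. In cDC2, 1 UMI was 0.560 CPM in the chemoresistant and 0.287 CPM in the primary library. Shares of cells were read after thinning to 3000 UMIs, which left out 72 chemoresistant and 8 primary cDC2.

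Named genes were the 12 highest and 12 lowest past 2-fold with a mean of at least 50 CPM, intervals apart and 1.5-fold as a mean over cells, without haemoglobin, immunoglobulin, mitochondrial and unnamed genes; from lists, the extremes and members past 1.5-fold, with further members chosen after their values were seen. The cells, the 39 lists and the tests were chosen with earlier results of these data known. No doublet caller was used in the values given, since the rule bars or limits genes of several other lineages, though not of all. Scrublet in scanpy 1.11.5 was an alternative. Its share was set at 0.8% per 1000 barcodes in both libraries because its automatic threshold called 0 chemoresistant barcodes. Of 771 list symbols, 9 were not found. The code was checked on simulated counts. Python 3.11.15, numpy 2.4.6 and scipy 1.17.1 were used. Of the genes that the rule for named genes chose, 1 is not reported here.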

Additional observations from a re-analysis of the deposited data

Results flagged for a closer look

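Among the 24 genes named for the difference between libraries, 4 that were higher in chemoresistant cDC2 pointed the other way by at least 1.5-fold in another phagocyte class. These differences between classes were not tested, since each class is 1 value per library. Saa3 had a log2 ratio of 2.16 in cDC2 and −2.26 in migratory dendritic cells, which had 70.6 CPM in the chemoresistant and 377 CPM in the primary library. Sparc had 1.89 in cDC2, −2.07 in migratory dendritic cells (89.5 and 407 CPM) and −1.38 in monocytes (448 and 1184 CPM). Cald1 had 1.85 in cDC2 and −1.76 in monocytes (130 and 464 CPM). Krt19 had 1.49 in cDC2 and −1.29 in monocytes (64.8 and 173 CPM). The migratory class held 36 chemoresistant and 61 primary cells and the monocyte class 55 and 32, so single cells weigh heavily in them.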

How the results depend on the processing

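The difference in share of cDC2 (−0.347 percentage points) became 0.410 with C1q UMIs barred altogether (182 chemoresistant and 104 primary cells), −0.951 with the rule applied after thinning, and −10.2 as a share of phagocytes. The 44 genes at least 2-fold higher became 24 without Scrublet doublets, 29 as a mean over cells, 88 with median-of-ratios scaling, 67 and 17 with 2 and 50 CPM added, 24 with a mean of at least 50 CPM and 83 with no filter. The 60 lower genes became 241 with C1q barred, 104 with the rule after thinning, 130 with members thinned, 32 with that scaling, 122 and 13 with 2 and 50 CPM added, 31 with at least 50 CPM and 115 with no filter. Of 481 list members, 34 were higher, and 66 with that scaling, 19 with 50 CPM added and 52 with no filter; 74 were lower, and 38, 33 (50 CPM added) and 49 (at least 50 CPM) under those settings. The causes were not tested, except that a higher or lower filter changes the number of genes compared. Leaving out macrophage-rich cells and requiring a UMI of Flt3, Zbtb46, Dpp4, Cbfa2t3, Kit, Ifitm1 or Cd7, both chosen after seeing the data, gave 42 and 48 higher and 43 and 58 lower genes. The neutrophil list median (3 genes) turned from 0.59 to −0.45 with a marker sum of at least 5 and −0.094 without Klrd1. Over all alternatives, 543 list medians stayed within 0.2 on the log2 scale, 99 moved further and 2 turned. No paired analysis was possible because each group is 1 library. At 1785836 and 3490152 UMIs in chemoresistant and primary cDC2, genes with a mean under 20 CPM over both libraries stayed out of the counts.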
